A study of Mus musculus with 11 samples.

Results

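Genes of the type I interferon and antiviral response were followed in MC38 tumors of mice treated with hetIL-15 or with PBS. They were taken by symbol: every measured gene whose name begins with Ifi (without *Ifih1*), Ifna, Ifnb or Oas, together with *Mx1*, *Mx2*, *Isg15*, *Isg20*, *Irf3*, *Irf7*, *Stat2*, *Tyk2*, *Bst2*, *Herc6*, *Ddx60*, *Xaf1*, *Usp18*, *Gbp5*, *Irgm2* and *Zbp1*. *Irf9* also belongs to the rule and is the 1 symbol of it that was not in the table analyzed. This gave 34 of 758 genes, namely 4 ligands, 2 receptor chains, 4 transducers and transcription factors, 17 antiviral effectors, and 7 regulators and other interferon-induced genes.

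MC38 is a colon carcinoma line of C57BL/6 mice. Animals of 6 to 8 weeks received 100000 to 200000 cells SC in the flank and were assigned to treatment 5 days later. The hetIL-15 group (6 tumors) was given 3 µg of the heterodimer of IL-15 and its receptor alpha chain, purified from HEK293 cells, by the IP route, 3 times per week and 4 times in all, whereas the PBS group (5 tumors) was given PBS. All tumors were removed 3 h after the fourth administration and whole-tumor RNA was profiled with an nCounter immune panel, in which color-coded probes are counted without amplification. All animals carried tumors of the same line. Values are log2 values that the authors quantile normalized between tumors, so a difference of 1 is a 2-fold change. In bulk RNA of this kind, fewer cells of a type and less RNA per cell cannot be told apart.

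Type I interferons are secreted when a cell senses foreign or misplaced nucleic acid. They bind a receptor made of IFNAR1 and IFNAR2, whose kinases TYK2 and JAK1 phosphorylate transcription factors that include STAT2. With IRF9, STAT2 is part of a complex that binds the interferon-stimulated response element in the promoters of antiviral genes. The products block viral entry, degrade or bind viral RNA, or feed back on the pathway. In tumors, the same genes serve as a readout of interferon made by infiltrating or malignant cells, and many of them also respond to interferon gamma, the product of activated NK and T cells.

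Letters like those of the response element stand in the promoters of several members, and the stretches below show some of these. A simplified form, the letters GAAA followed by any 2 bases and again by GAAA, was searched on both strands of windows of 300 bases (250 before and 50 after the start site) from RefSeq, build GRCm38.p6, and its overlapping matches were all kept. Of the 34 genes, 28 were in that table. The letters were found in 13 of these 28 (46.4%), against 8.70% of 552 panel genes, the 28 included. Over all 27025 genes of that table the share was 3.99%, and over its 32851 windows it was 3.44%. Capitals mark the matches, and those of *Ifit1* and *Ifit3* are on the opposite strand, so that they are printed as the reverse complement.
*Isg15*, chr4:156200859-156200918, minus strand: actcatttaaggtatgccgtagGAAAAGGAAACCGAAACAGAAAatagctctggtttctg
*Ifit1*, chr19:34640769-34640828, plus strand: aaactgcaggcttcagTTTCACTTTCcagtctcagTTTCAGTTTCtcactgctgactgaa
*Ifit3*, chr19:34583364-34583423, plus strand: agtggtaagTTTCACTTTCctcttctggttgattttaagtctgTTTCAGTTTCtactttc
*Bst2*, chr8:71537558-71537617, minus strand: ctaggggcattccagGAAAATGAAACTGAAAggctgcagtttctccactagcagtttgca
*Ifitm2*, chr7:140955972-140956031, minus strand: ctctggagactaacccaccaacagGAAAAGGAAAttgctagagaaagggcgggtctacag
*Ifitm1*, chr7:140967926-140968075, plus strand: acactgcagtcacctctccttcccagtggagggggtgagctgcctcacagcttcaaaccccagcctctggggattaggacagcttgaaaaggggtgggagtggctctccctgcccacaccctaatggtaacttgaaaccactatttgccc

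Each stretch is written 5′ to 3′ along the gene and lies before its start site. *Isg15* holds 3 overlapping matches that begin 78, 72 and 66 bases before the start, *Ifit1* holds 2 at 104 and 85, *Ifit3* holds 2 at 156 and 122, and *Bst2* holds 2 that overlap, at 130 and 124. *Ifitm2* holds 1 match, 46 bases before the start. *Ifitm1*, its neighbor on chromosome 7, has no match in its window, of which the last 150 bases before the start are shown. *Isg15*, *Ifit1* and *Ifit3* are classical induced genes, and *Bst2*, *Ifitm2* and *Ifitm1* had the smallest p-values among the effectors. Matches not shown were those of *Ifna1*, *Ifna2*, *Ifna4*, *Stat2*, *Ddx60*, *Gbp5*, *Irgm2* and *Oas3*. Other members, such as *Ifit2*, *Irf7*, *Isg20*, *Oasl1* and *Ifi44*, had no match, so the letters do not mark every induced gene.

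At this time point, none of the 34 genes passed an adjusted p of 0.05 between hetIL-15 and PBS tumors (limma, two-sided, adjusted over all 758 genes), against 2.11% of all genes (16 of 758). With a 2-fold change required as well, none of the 34 passed, against 1.58% of all genes (12 of 758). At an unadjusted p under 0.05, 1 of the 34 genes remained, the membrane protein gene *Ifitm1*, against 11.9% of all genes (90 of 758). This count was 0 to 3 with single tumors left out, against 64 to 97 of all 758 genes. With tumor weights it was 4 of 34, against 103 of 758. Without the genes low in signal it was 4 of 28, against 72 of 568. In none of the 34 did the values of hetIL-15 and PBS tumors separate without overlap, which 2.51% of all genes did (19 of 758). By gene-wise exact permutation tests, 3 of the 34 had an unadjusted p under 0.05 (*Ifnar2*, *Ifitm2* and *Bst2*), against 89 of 758.

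The log2 fold changes, hetIL-15 over PBS, lay close to zero. Their median was -0.02 over the 34 genes and -0.03 over all genes, with 14 above and 20 below zero, and the extremes were -0.51 for *Ifnb1* and 0.49 for *Ifitm1*. The median size of the change without its sign was 0.09, against 0.169 over all genes, a comparison not matched for signal level. The 95% interval lay within a 2-fold change in either direction for 31 of the 34, against 574 of 758. The 3 genes whose intervals reached further were *Ifna4*, *Ifnb1* and *Mx1*, and these are low in signal. Low in signal refers to a mean log2 value under 5.18 across the 11 tumors, the lowest 0.25 of the table. This holds for 6 of the 34, *Ifna1*, *Ifna2*, *Ifna4*, *Ifnb1*, *Mx1* and *Ifi44l*, and it leaves 28.

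**Figure D1:**
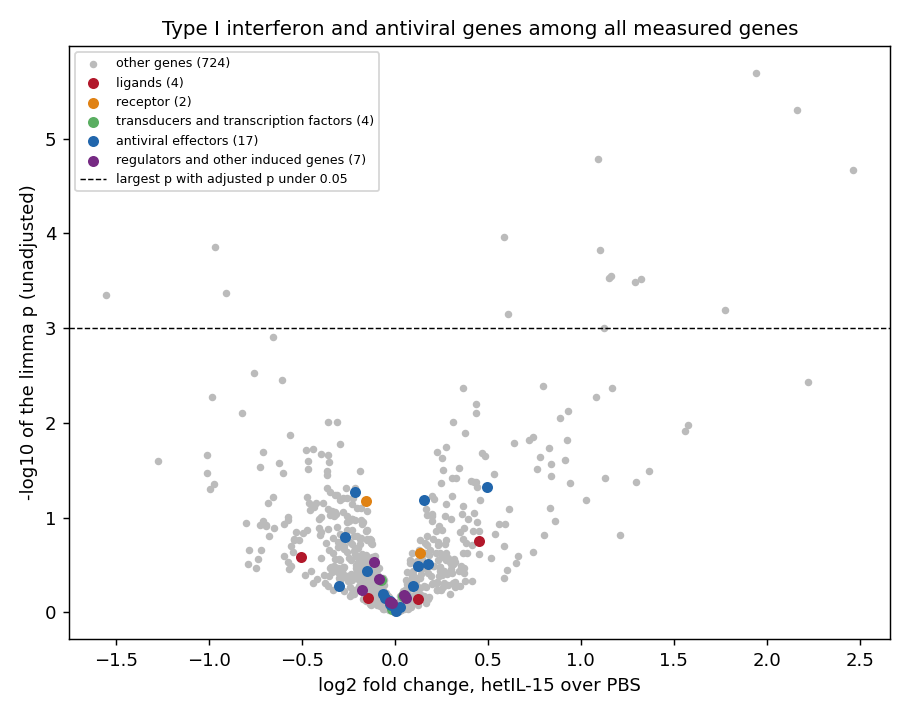
The log2 fold change of each gene (x axis, hetIL-15 over PBS) is plotted against -log10 of its unadjusted limma p (y axis), with the 34 interferon genes colored by role and the other 724 genes in gray. All colored points lie between -0.51 and 0.49 and under the dashed line, which marks the largest p that still gave an adjusted p under 0.05.

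**Figure D2:**
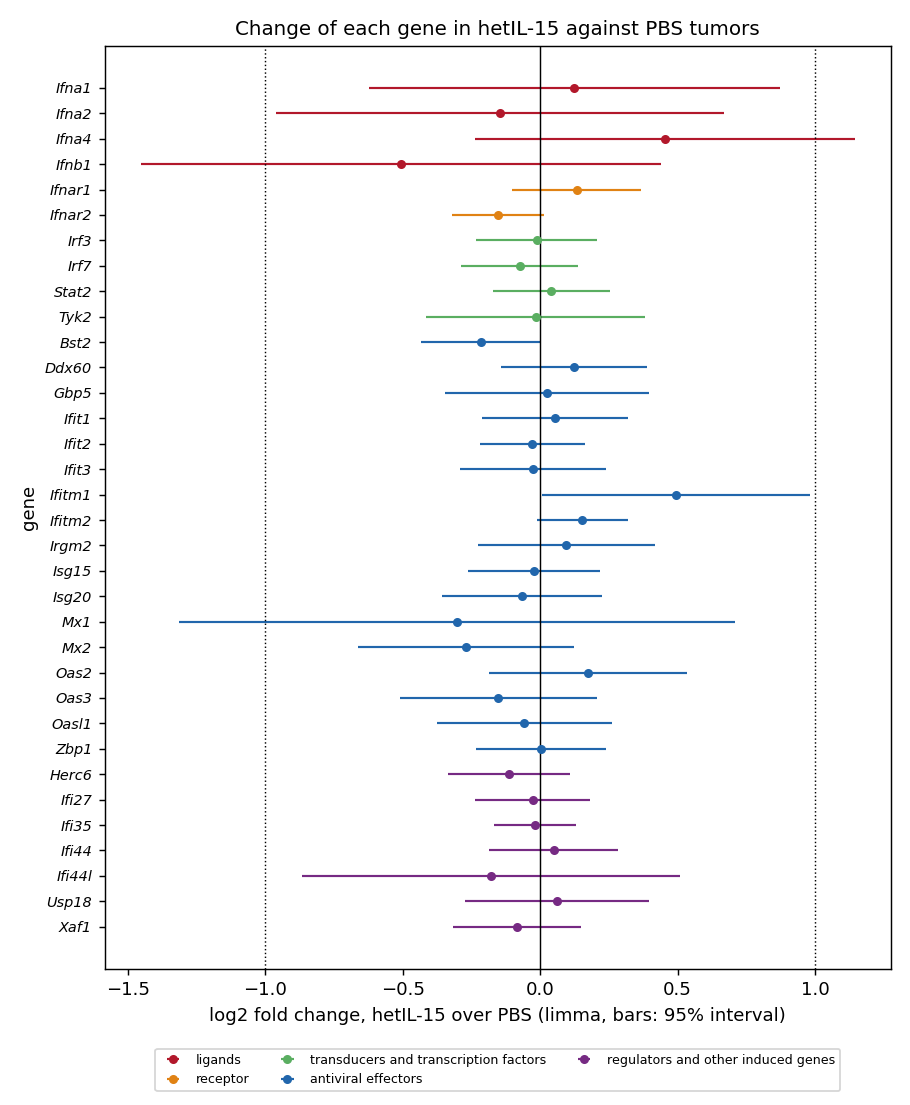
Each point is the log2 fold change of 1 gene, hetIL-15 over PBS, with its 95% interval from limma as a bar, and dotted lines mark a 2-fold change. Only the bars of *Ifna4*, *Ifnb1* and *Mx1* cross a dotted line, and only the bar of *Ifitm1* clears zero.

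The ligands were measured near the lower end of the scale in both groups. *Ifnb1*, the interferon beta gene, was at 3.72, 4.17, 2.88, 4.34, 4.88 and 4.91 in the 6 hetIL-15 tumors, against 4.17, 4.46, 3.75, 5.43 and 5.46 in the 5 PBS tumors. The highest values were those of PBS replicates 4 and 5, and 2 hetIL-15 tumors lay under every PBS tumor. The difference was -0.51 on the log2 scale (SE 0.43, adjusted p = 0.751), with a 95% interval of -1.45 to 0.44. It was -0.25 without hetIL-15 replicate 3 and 0.02 without PBS replicates 4 and 5. *Ifna4* read 4.17, 3.91, 4.47, 4.46, 4.10 and 5.53 in hetIL-15 tumors, against 3.31, 3.80, 4.46, 4.58 and 3.78 in PBS tumors. Here hetIL-15 replicate 6 alone exceeded all PBS tumors, and the difference was 0.45 (SE 0.31, adjusted p = 0.643, interval -0.24 to 1.14). Without that tumor it was 0.24.

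The other interferon alpha genes overlapped throughout. *Ifna1* was at 3.72, 3.23, 3.31, 3.91, 4.40 and 4.91 in hetIL-15 tumors, against 4.17, 3.34, 4.46, 3.19 and 3.78 in PBS tumors (0.12, SE 0.34, adjusted p = 0.948). For *Ifna2* the hetIL-15 tumors gave 3.72, 3.91, 4.17, 2.92, 3.34 and 2.96, against 3.31, 3.34, 2.88, 3.75 and 4.98 in PBS tumors (-0.15, SE 0.37, adjusted p = 0.945). The alpha genes do not share an order of tumors: hetIL-15 replicate 6 was the highest of its group for *Ifna1* and *Ifna4*, and among the lowest for *Ifna2*. They belong to a family of near-identical copies, so how a probe splits between copies is uncertain. Values repeat between genes at this level, for example 3.72 for *Ifna1*, *Ifna2*, *Ifnb1* and *Mx1* in hetIL-15 replicate 1, which makes small differences there coarse.

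Both receptor chains were well above the low range. *Ifnar2*, the chain with high affinity for the ligand, was at 9.73, 9.82, 9.74, 9.85, 9.73 and 9.72 in hetIL-15 tumors, against 10.02, 9.86, 9.94, 10.00 and 9.78 in PBS tumors. Thus 4 of 6 hetIL-15 tumors lay under every PBS tumor, and the rest lay within the PBS range. The difference was small, -0.15 (SE 0.08, interval -0.32 to 0.01), and missed the threshold (adjusted p = 0.477), with an unadjusted exact permutation p = 0.0130. *Ifnar1* lay at 9.93, 10.36, 9.87, 9.98, 9.93 and 10.03 in hetIL-15 tumors, against 9.86, 10.10, 9.88, 9.77 and 9.81 in PBS tumors (0.13, SE 0.11, adjusted p = 0.729). Only hetIL-15 replicate 2 was above all PBS tumors for this chain.

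Transducers and transcription factors showed the smallest differences of the 5 roles, from -0.07 to 0.04. *Stat2*, which carries the response from the receptor to the nucleus, read 11.40, 11.49, 11.07, 11.45, 11.54 and 11.40 in hetIL-15 tumors, against 11.37, 11.33, 11.39, 11.42 and 11.23 in PBS tumors (0.04, SE 0.10, adjusted p = 0.942). The widest departure was that of hetIL-15 replicate 3, under all PBS tumors, while 3 hetIL-15 tumors were above them. *Irf7*, the factor that amplifies interferon alpha production and is itself induced by interferon, was at 10.50, 10.18, 10.42, 10.46, 10.22 and 10.42 in hetIL-15 tumors, against 10.46, 10.23, 10.51, 10.60 and 10.40 in PBS tumors (-0.07, SE 0.10, adjusted p = 0.841). No hetIL-15 tumor exceeded the PBS maximum.

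*Irf3*, the constitutive factor that starts interferon beta transcription, was at 9.17, 9.23, 8.98, 9.44, 9.46 and 9.36 in hetIL-15 tumors, against 9.32, 9.20, 9.33, 9.34 and 9.24 in PBS tumors (-0.01, SE 0.10, adjusted p = 0.968). The hetIL-15 tumors lay on both sides of the narrow PBS range. The receptor kinase gene *Tyk2* gave 6.48, 5.98, 6.24, 6.82, 6.09 and 5.86 in hetIL-15 tumors, against 6.37, 6.43, 6.19, 5.88 and 6.43 in PBS tumors (-0.02, SE 0.18, adjusted p = 0.976). For these 4 genes the 95% intervals lay between -0.42 and 0.38.

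Among the antiviral effectors, the 2 measured members of the IFITM family, membrane proteins that hinder fusion of viruses with the cell, had the positive differences with the smallest p-values. *Ifitm1* read 9.86, 10.52, 10.46, 10.78, 10.46 and 10.04 in hetIL-15 tumors, against 9.74, 10.18, 10.16, 10.07 and 9.15 in PBS tumors. The lowest value of all was that of PBS replicate 5, and 4 of 6 hetIL-15 tumors were above every PBS tumor. The difference of 0.49 (SE 0.22, interval 0.01 to 0.98) did not pass the threshold (adjusted p = 0.416) and had an unadjusted exact permutation p = 0.0541. Without PBS replicate 5 or with PBS replicates 4 and 5 both left out it was 0.32 and 0.33.

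*Ifitm2* lay at 12.84, 12.84, 12.76, 12.95, 12.73 and 12.73 in hetIL-15 tumors, against 12.61, 12.73, 12.73, 12.61 and 12.58 in PBS tumors. The lowest hetIL-15 tumors met the highest PBS tumors at 12.73, and 4 of 6 were above them. The difference was 0.15 (SE 0.08, interval -0.01 to 0.32, adjusted p = 0.471), with an unadjusted exact permutation p = 0.0216. The pair differs in the promoter letters shown above, present before *Ifitm2* and not found before *Ifitm1*.

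*Bst2* (tetherin), which holds budding virus at the cell surface and also marks plasmacytoid dendritic cells, had a negative difference. It was at 13.93, 13.93, 14.09, 14.19, 14.09 and 13.82 in hetIL-15 tumors, against 14.37, 14.09, 14.19, 14.37 and 14.09 in PBS tumors. Here 3 hetIL-15 tumors were under every PBS tumor, and the other 3 shared values with PBS tumors. All tumors took 1 of the values 13.82, 13.93, 14.09, 14.19 and 14.37, so the difference rests on coarse steps. The difference was -0.21 (SE 0.10, interval -0.43 to 0.00, adjusted p = 0.446), with an unadjusted exact permutation p = 0.0476. Across the 7 measured of 10 listed markers of plasmacytoid dendritic cells, which include *Bst2* and *Irf7*, 0 passed the threshold and the summed level off the log2 scale was 16387 to 20555 in hetIL-15 tumors and 19221 to 23393 in PBS tumors. *Bst2* itself makes up most of these sums, so they largely repeat its own difference and are no separate measure of these cells. The part of these cells in the difference was not tested.

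**Figure D3:**
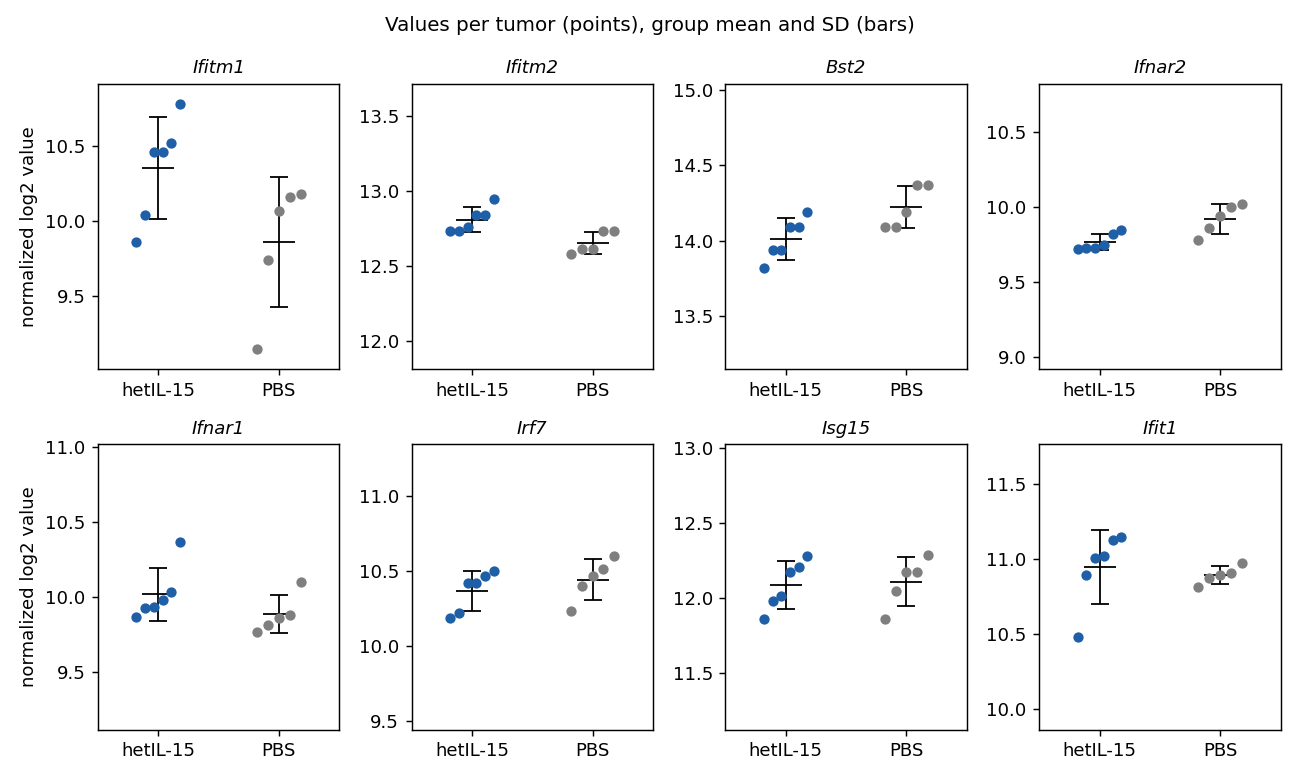
Normalized log2 values (y axis, the same span of log2 units in every panel) of 8 genes in each tumor (points), 6 hetIL-15 tumors in blue and 5 PBS tumors in gray, with the group mean and SD as bars. The groups overlap in every panel, with the largest distance between means, 0.49, for *Ifitm1*.

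The Mx genes encode dynamin-like GTPases that trap viral nucleocapsids. In the C57BL/6J reference annotation both are transcribed pseudogenes, and the probes read their transcripts. *Mx2* was at 9.14, 9.0, 8.39, 9.04, 8.91 and 9.22 in hetIL-15 tumors, against 9.29, 8.71, 9.16, 9.52 and 9.41 in PBS tumors (-0.27, SE 0.18, adjusted p = 0.639). The lowest tumor was hetIL-15 replicate 3, and none of the hetIL-15 tumors reached above the PBS maximum. *Mx1* was at 3.72, 4.67, 3.75, 3.34, 3.75 and 1.92 in hetIL-15 tumors, against 3.31, 2.90, 4.15, 4.17 and 4.62 in PBS tumors (-0.30, SE 0.46, adjusted p = 0.874). Its spread was the widest of the 34 genes, with a within-group SD of 0.82.

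*Oas2* and *Oas3* encode sensors of double-stranded RNA that activate RNase L, and their differences had opposite signs. *Oas2* read 11.07, 11.65, 10.97, 11.70, 11.74 and 11.35 in hetIL-15 tumors, against 11.26, 11.10, 11.40, 11.39 and 11.05 in PBS tumors (0.17, SE 0.16, adjusted p = 0.773). The hetIL-15 tumors fell into 3 above all PBS tumors, 1 below them and 2 between. *Oas3* and the related *Oasl1* differed by -0.15 (SE 0.16, adjusted p = 0.793) and -0.06 (SE 0.14, adjusted p = 0.945).

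The classical induced genes lay well above the low range in both groups and differed little. *Isg15*, whose ubiquitin-like product is conjugated to proteins during the response, was at 11.98, 12.01, 11.86, 12.17, 12.21 and 12.28 in hetIL-15 tumors, against 12.17, 11.86, 12.04, 12.29 and 12.17 in PBS tumors (-0.02, SE 0.11, adjusted p = 0.957). All 6 hetIL-15 tumors lay inside the PBS range. *Ifit1*, which binds foreign RNA at its end, was at 11.01, 11.15, 10.48, 11.12, 11.02 and 10.89 in hetIL-15 tumors, against 10.81, 10.87, 10.89, 10.97 and 10.90 in PBS tumors (0.05, SE 0.12, adjusted p = 0.939). Of the hetIL-15 tumors, 4 were above all PBS tumors and 1, replicate 3, was far below them. Its relatives *Ifit2* and *Ifit3* both differed by -0.03 (SE 0.09 and 0.12).

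The remaining effectors had differences between -0.06 and 0.12. They were the exonuclease gene *Isg20* (-0.06, SE 0.13), the helicase gene *Ddx60* (0.12, SE 0.12), the nucleic acid sensor *Zbp1* (0.00, SE 0.11), and the interferon-inducible GTPases *Gbp5* (0.03, SE 0.17) and *Irgm2* (0.10, SE 0.15). *Zbp1* averaged 12.55 ± 0.20 in hetIL-15 tumors and 12.55 ± 0.09 in PBS tumors (SD, n = 6 and 5). None of the 17 effectors passed the threshold, with 8 differences above and 9 below zero.

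Of the regulators and other induced genes, 0 of 7 passed the threshold and the differences ran from -0.18 to 0.06. *Usp18*, the protease that removes ISG15 and dampens the receptor, differed by 0.06 (SE 0.15, adjusted p = 0.945). *Herc6*, the ligase for ISG15 in mice, differed by -0.11 (SE 0.10, adjusted p = 0.770), with 3 hetIL-15 tumors under every PBS tumor. The 95% interval of *Ifi35* was the narrowest of all, -0.17 to 0.13 around -0.02, while *Ifi44l*, low in signal, had the widest of this role, -0.86 to 0.51 around -0.18. *Ifi27*, *Ifi44* and the pro-apoptotic *Xaf1* lay at -0.03 (SE 0.09), 0.05 (SE 0.11) and -0.08 (SE 0.11).

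Further scaling of each tumor to the housekeeping genes adds a common step of under 0.1 to every difference, so the sign of a gene below zero by less than that step turns with the choice of scale. By construction 25 of the 34 then lay above and 9 below zero, and the 11 that changed sign included *Irf3*, *Irf7*, *Tyk2*, *Isg15*, *Isg20*, *Ifit2*, *Ifit3*, *Ifi27* and *Ifi35*. The median was then 0.07 over the 34 genes and 0.05 over all genes, and again none passed the threshold. On this scale *Ifitm1* was at 0.58, *Ifitm2* at 0.24, *Bst2* at -0.13, *Ifnar2* at -0.0670 and *Mx2* at -0.18, each with its sign as before.

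**Figure D4:**
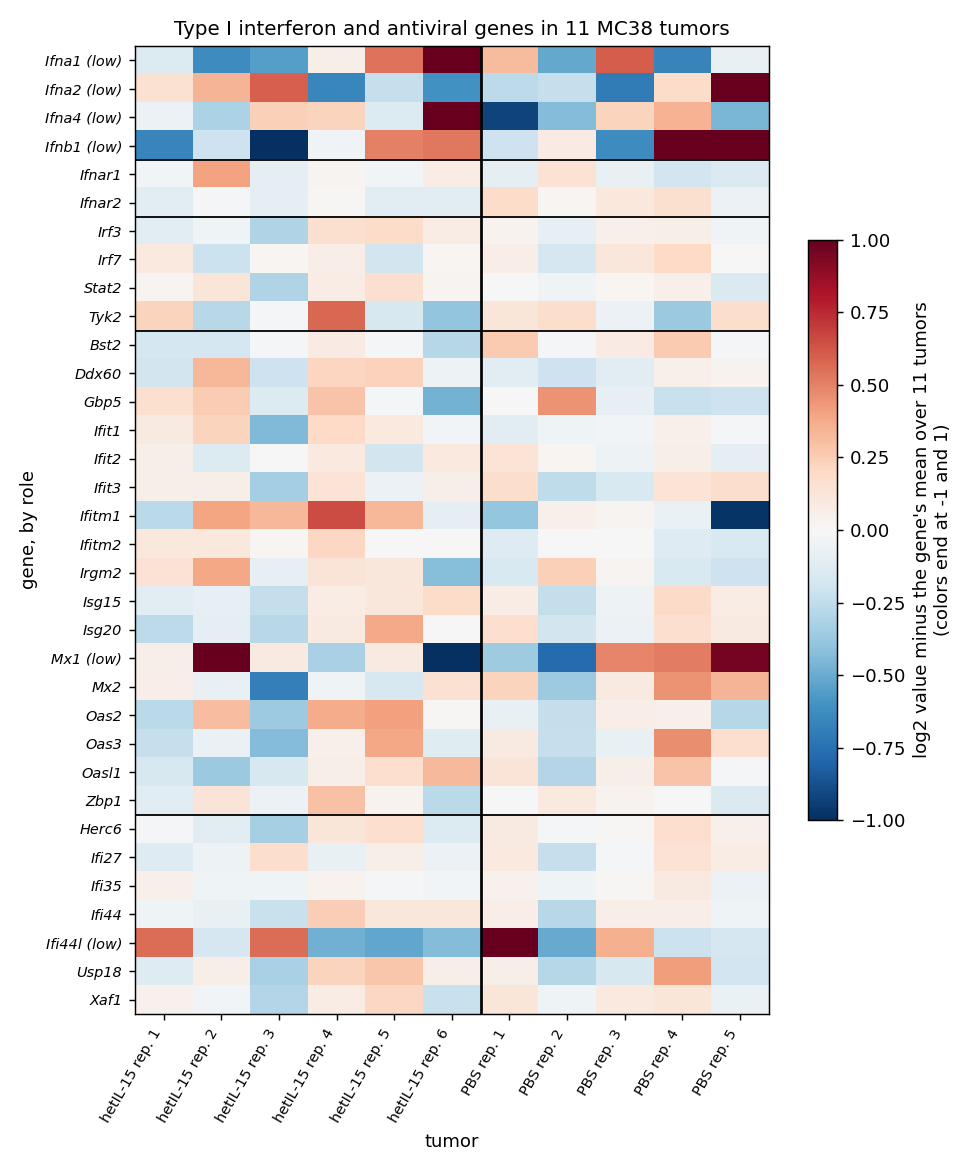
Each row is 1 of the 34 genes, grouped by role with lines between roles, and each column is a tumor, hetIL-15 left and PBS right of the black line. Colors give the log2 value minus the mean of the gene over the 11 tumors and end at -1 and 1, and rows marked low, such as *Ifnb1* and *Mx1*, are low in signal and hold most of the deep colors, whereas hetIL-15 replicate 3 is blue in most of the other rows.

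Spread between tumors of a group was small in these genes. Over the 28 genes not low in signal the median within-group SD was 0.16 and the median size of the difference between group means was 0.06, against 0.275 and 0.14 over all 568 genes not low in signal. The comparison is not matched for level. Most of the 28 genes lie above the tumor medians of all genes (7.66 to 7.68). Over all genes low in signal the median SD was 0.673. The part of level in the smaller spread was not tested. Single tumors held distinct places. In hetIL-15 replicate 3, 23 of the 28 genes lay under the mean of its own group and 16 were the lowest of the group, among them *Stat2*, *Isg15*, *Ifit1*, *Ifit3*, *Mx2*, *Oas2* and *Oas3*. Its median distance from the group mean was -0.19, whereas over all 568 genes not low in signal it was -0.02. In hetIL-15 replicate 4, 26 of the 28 lay above the group mean, by a median of 0.13.

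PBS tumors were spread in the same manner. PBS replicate 4 was the highest of its group in 17 of the 28 genes, including *Irf7*, *Isg15*, *Ifit1*, *Mx2*, *Oas3* and *Oasl1*. Its median was 0.10 above the group mean, against 0.05 over all 568 genes not low in signal. PBS replicate 2 was the lowest in 14, with a median of -0.09, against -0.04 over the same 568 genes. Yet it was the highest in 6, the GTPases *Gbp5* and *Irgm2*, *Zbp1*, *Ifitm1*, *Ifitm2* and *Ifnar1*. The GTPases also parted from *Isg15* in hetIL-15 replicate 6, which was the lowest of its group for *Gbp5* (10.10), *Irgm2* (9.65) and *Zbp1* (12.28) and the highest for *Isg15* (12.28), *Mx2* (9.22) and *Oasl1* (11.32). Equal values were counted for each tumor that shared them.

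**Figure D5:**
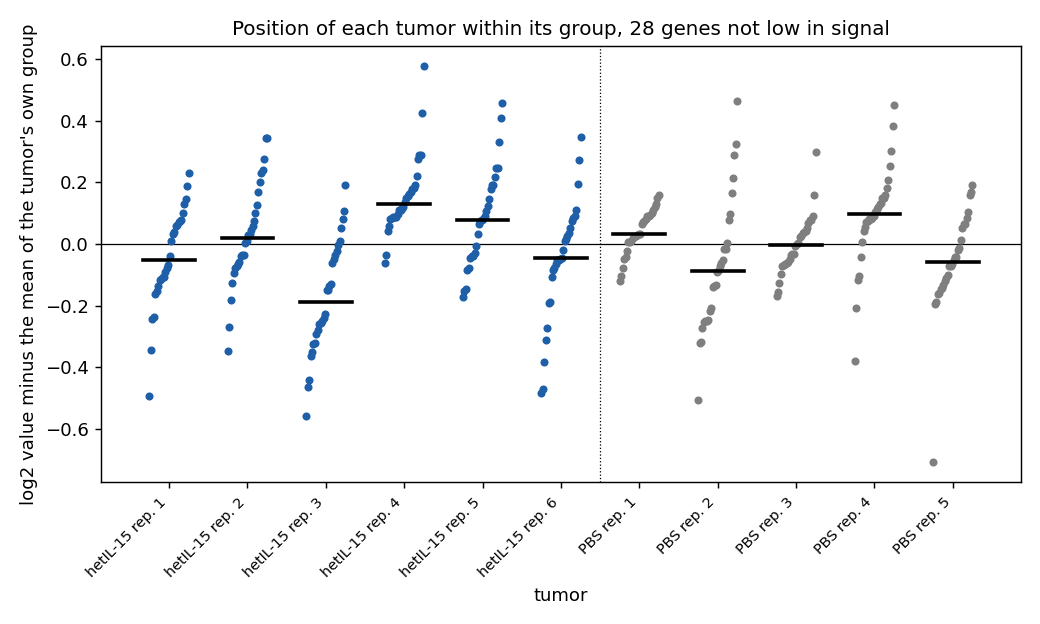
For each tumor (x axis, 6 hetIL-15 tumors in blue, then 5 PBS tumors in gray), each point is 1 of the 28 genes not low in signal and the y axis is its log2 value minus the mean of the tumor's own group, with the median as a bar. The lowest bar is that of hetIL-15 replicate 3 (-0.19) and the highest that of hetIL-15 replicate 4 (0.13).

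Members with and without the response element letters overlapped in their differences. Among the 28 genes not low in signal, the 10 with the letters had a median log2 fold change of 0.03 (from -0.21 for *Bst2* to 0.15 for *Ifitm2*), and the 13 without had a median of -0.03 (from -0.15 for *Ifnar2* to 0.49 for *Ifitm1*). The other 5 were not in the promoter table. A match is a description of letters in this window only.

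The pathway beyond these genes showed the same lack of calls. Of 33 other listed genes of type I interferon sensing, signaling and response, 28 were measured and 0 passed the threshold, with 11 differences above and 17 below zero and a median of -0.03. By exact permutation 2 of the 28 had an unadjusted p under 0.05, *Socs1* and *Cxcl10*, against 89 of 758 genes. At an unadjusted limma p under 0.05 there was 1, against 90 of 758, namely *Socs1*, a feedback inhibitor of JAK kinases that many cytokines induce. *Socs1* read 9.64, 9.55, 9.65, 9.62, 9.64 and 9.52 in hetIL-15 tumors, against 9.32, 9.52, 8.96, 9.12 and 9.25 in PBS tumors (0.37, SE 0.10, adjusted p = 0.142). The only contact between the groups was PBS replicate 2, and without that tumor the difference was 0.44 with an adjusted p = 0.0392. Leaving out that tumor takes away the overlap, so a smaller p is built in and is no support for a call. In no other alternative did any of these pathway genes pass.

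The chemokine gene *Cxcl10*, induced by both types of interferon, was at 13.72, 13.07, 13.63, 13.69, 13.57 and 13.69 in hetIL-15 tumors, against 13.93, 13.72, 13.72, 13.82 and 13.93 in PBS tumors (-0.26, SE 0.13, adjusted p = 0.471). The highest hetIL-15 tumor only reached the lowest PBS tumors, and the other 5 lay under every PBS tumor. Its unadjusted exact permutation p was 0.0216. Also among the 4 listed genes with the smallest p were *Irf5*, a transcription factor of myeloid cells (-0.35, SE 0.16, adjusted p = 0.446), and the interferon lambda gene *Ifnl2* (-0.73, SE 0.43, adjusted p = 0.574), which is low in signal. Of 12 measured genes of the interferon gamma axis, some shared with the pathway list, 0 passed the threshold. By limma 3 of the 12 had an unadjusted p under 0.05, against 90 of 758 genes, with *Socs1* among the 3. All 3 were higher in hetIL-15 tumors, as were 56 of the 90. By exact permutation the count was 4, against 89 of 758, and by exact Mann-Whitney tests 5, against 69 of 758. Both of these counts include *Cxcl10*, which was lower in hetIL-15 tumors, so the shared direction holds for the limma count only. *Ifng* itself was at 0.92 (SE 0.32, adjusted p = 0.291) and low in signal.

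Levels of other cell types give the setting of these values. Among 6 NK cell markers, 2 were higher in hetIL-15 tumors, *Ncr1* (1.10, SE 0.19, adjusted p = 0.0162) and *Klrc1* (1.32, SE 0.25, adjusted p = 0.0227), and the summed level was 1041 to 1393 in hetIL-15 tumors and 661 to 973 in PBS tumors. The sums overlapped for 13 macrophage and monocyte markers (9112 to 14265 in hetIL-15 tumors and 9345 to 13773 in PBS tumors) and for the 34 interferon genes (73459 to 88594 in hetIL-15 tumors and 75931 to 86665 in PBS tumors). No marker of macrophages, T cells or B cells passed the threshold. Low in signal were 4 of the 7 T cell markers and all 4 B cell markers, so the lack of calls says little about those cells. Of 8 listed epithelial markers 4 were measured, and 3 of these were low in signal. The low ones included *Epcam* (5.09 in hetIL-15 tumors and 5.0 in PBS tumors) and *Cdh1* (5.12 in hetIL-15 tumors and 4.61 in PBS tumors). So few markers, on an immune panel, say little about the carcinoma label in either direction. On the first principal component of all genes, PBS replicates 4 and 5 lay at one end (-8.48 and -12.31) and hetIL-15 replicate 4 at the other (9.42). On the second, hetIL-15 replicate 5 was the farthest from zero (-12.42). The count was again 0 of the 34 genes with both PBS tumors left out. The same held with hetIL-15 replicate 4 or 5 left out singly.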

How the data were processed

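RNA of 11 whole MC38 tumors (6 hetIL-15, 5 PBS, grouped by the treatment label) was measured on an nCounter panel of 780 genes. The deposited values, used as given, are log2 values of the 758 genes that passed the authors' filter on low signal, brought by them to a common distribution across tumors (quantile normalization). Converted back from log2, their total per tumor is 999186 to 999245, and 69.9% of values in a tumor equal that of another gene, which makes low values coarse. Values at the upper end of the scale come in coarse steps too, as for *Bst2*. The deposited count table served only for probe names and accessions: its 11 columns of counts match no tumor by name and were not used, so the depth behind each value is unknown. Of the 34 genes, 31 were matched to RefSeq by accession and the rest by symbol. No build is given for the panel in the sources used here.

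Groups were compared on all 758 genes with limma 3.58.1 in R 4.3.3 (lmFit, eBayes with default settings, hetIL-15 minus PBS, no covariate), with Benjamini-Hochberg adjustment over all genes. Exact permutation tests ran over all 462 groupings of the tumors and cannot give a p below 0.00216. The limma step was tested on simulated data. Labels do not say whether replicates came from separate cohorts, so p-values measure the spread between these tumors.

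The genes named with values in every tumor are the 6 with the smallest p, the 3 highest and 3 lowest differences, the 3 with the largest SD, and every ligand, receptor chain and transcription factor. *Isg15*, *Ifit1* and the cell type and interferon gamma genes named were added after their values were seen. The members and gene lists were chosen with earlier results of these data known. Alternatives covered scaling, low values, prior variance, tumor weights, the replicate number as a block, Bonferroni adjustment, an exact Mann-Whitney test and leaving out tumors. Figures were drawn with matplotlib 3.10.9.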

Additional observations from a re-analysis of the deposited data

Results flagged for a closer look

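Within-group gaps were tested for the 34 genes in both groups, 68 tests in all, of which 4 stood out. Chance gives about 1 in 20, so this is about the number that chance gives. All 4 lay among hetIL-15 tumors. *Ifna4* was at 5.53 in hetIL-15 replicate 6, where the next tumor of the group had 4.47. *Ifnar1* was at 10.36 in hetIL-15 replicate 2, where the next had 10.03. Both *Mx2* at 8.39 (next 8.91) and *Stat2* at 11.07 (next 11.40) were lowest in hetIL-15 replicate 3, the tumor in which 16 of 28 genes were the lowest of the group. With hetIL-15 replicate 3 left out, 0 of the 34 genes passed the threshold and their median log2 fold change was 0.00. What sets this tumor apart was not tested.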

How the results depend on the processing

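Under the 21 alternatives run, 0 of the 34 genes passed an adjusted p of 0.05, and the smallest adjusted p was 0.175 (*Ifnb1*, with the replicate number as a block). Bonferroni adjustment cannot pass a gene that the Benjamini-Hochberg adjustment does not. The smallest adjusted p of the exact Mann-Whitney test over all 758 genes was 0.173. Neither adds a check of the 34 genes. The count over all 758 genes, 16, was 5 with the replicate block, 4 with Bonferroni adjustment, 0 with exact Mann-Whitney tests (69 at an unadjusted p under 0.05), 5 without PBS replicates 4 and 5, and 8 to 15 with single tumors left out (8 without hetIL-15 replicate 4, 9 without PBS replicate 4, 10 without PBS replicate 1, PBS replicate 5 or hetIL-15 replicate 2). The other pathway genes gave 0 to 1 calls with single tumors left out, the 1 being *Socs1* without PBS replicate 2. After the group mean of each gene was taken off, tumors of the same replicate number correlated at -0.05 to 0.13. These low values gave no sign of pairing, but tumors of different numbers were not compared. The median of the 34 genes was 0.0668 under housekeeping scaling.

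Among the genes named by the rule, signs turned only for small differences or genes low in signal. Housekeeping scaling gave 0.0740 for *Irf3*, 0.0123 for *Irf7* and 0.0704 for *Tyk2*. Tumor weights gave 0.0229 for *Ifna2*, -0.0798 for *Ifna1* and 0.0123 for *Tyk2*, and the replicate block gave 0.0181 for *Mx1*, -0.0741 for *Ifna1* and 0.0607 for *Tyk2*. Without PBS replicates 4 and 5 the values were 0.0211 for *Ifnb1*, 0.0748 for *Mx1*, 0.33 for *Ifna2* and -0.0786 for *Ifna1*. With single tumors left out, *Ifnb1* kept its sign (-0.73 to -0.25), *Ifna4* likewise (0.24 to 0.60), *Mx1* ran from -0.54 to 0.0181, *Ifna2* from -0.34 to 0.19, *Ifna1* from -0.0741 to 0.29, *Irf3* from -0.0512 to 0.0458 and *Tyk2* from -0.13 to 0.0607. The cause was not tested. With 6 against 5 tumors and unknown depth, the 95% intervals of the 6 genes low in signal reached or neared a 2-fold change, so smaller differences were not detectable in them.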
